A study of Homo sapiens with 5 samples.

Results

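The SLIT, ROBO and UNC5 guidance genes are described across 8 sets of cells taken during the differentiation of human stem cells towards neurons that make gonadotropin-releasing hormone (GnRH). The 10 genes were SLIT1, SLIT2 and SLIT3, ROBO1, ROBO2 and ROBO3, and UNC5A, UNC5B, UNC5C and UNC5D. They were chosen by symbol and not by their values, from 33538 genes listed for D22 to D26 and 36601 listed for D0 to D10. All 10 were listed once in each of the 8 sets. Between 2 and 7 of them reached 5 CPM (UMIs in every 1000000 UMIs) in a set, with 2 at D5 without XAV939, 5 at D22, 6 at D24 and 7 at D26.

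SLIT proteins are secreted and bind ROBO receptors on the growth cones of axons and on migrating neurons, which are usually repelled. ROBO3 is the divergent member of its family, is known for its part in the crossing of the midline by commissural axons, and takes NELL2 rather than SLITs as a ligand. UNC5 proteins are receptors of netrins and convey repulsion, alone or together with DCC, and they also bind FLRT proteins on other cells. GnRH neurons are born in the nose and migrate along axons into the forebrain, so that guidance receptors are of interest in their derivation.

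All cells came from WA09, a human embryonic stem cell line of wild-type genotype, and were measured by 3′ single-cell RNA sequencing on droplets, which counts unique molecular identifiers (UMIs) per gene and cell. D0 was the undifferentiated line. The sets D5_dSMADi and D10_dSMADi held cells at day 5 and day 10 of dual SMAD inhibition with dorsomorphin and SB431542, and D5_XAV939 and D10_XAV939 received in addition 10 µM of XAV939, an inhibitor of Wnt signalling, from the start. These 5 sets were marked with tags and run as 1 pool. D22, D24 and D26 followed the protocol without XAV939. In it dual SMAD inhibition was followed by FGF8 and then by the Notch pathway inhibitor DAPT, with the cells frozen and thawed on the way. The 5 tagged sets were thus parts of 1 gene expression library, and D22, D24 and D26 were 1 library each. No condition had a replicate culture in the data, so that no difference was tested and every interval below covers counting error only.

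The sets held between 1292 and 12171 barcodes, of which between 1009 and 11056 passed the limits on cells. Their median depth was 69455 UMIs a cell at D0, between 24290.5 and 31112.5 at D5 and D10, and between 7180 and 12179 at D22 to D26. In each tagged set the tag named by the labels made up between 95.1% and 95.6% of tag counts. No barcode was shared among the tagged sets, and at most 37 were shared by any other pair of sets. The day cannot be told apart from the library between D10 and D22. The pool and the later libraries also differed in the version of the counting software. Ratios were therefore taken only within the pool or among the later libraries, and each later day is itself 1 library. A level is given as the UMIs of a gene in every 1000000 UMIs of the group (CPM) with its exact 95% Poisson interval. These are 3′ counts that are not scaled to length, so levels were not compared between genes.

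At D22 to D26, cells were split by genes other than the guidance genes. GNRH1-high cells had a GNRH1 level of at least 3000 CPM, and numbered 6 at D22, 312 at D24 and 828 at D26. TBR1/PPP1R17 cells had at least 3 UMIs of TBR1 and PPP1R17 together, and numbered 784, 5358 and 7580. Cells of both rules, 33 at D24 and 171 at D26, had median depths of 14994 and 17297 UMIs and were left out of both classes. The remaining cells were split into IRX+ cells with at least 1 UMI of IRX1, IRX2, IRX3 or IRX5 (1328, 451 and 299 cells) and IRX- cells (7405, 2953 and 2178 cells). The IRX- cells were split again into cycling cells, with at least 3 UMIs of MKI67 and TOP2A together, DLX+ cells and the rest. DLX+ cells (470, 141 and 592 cells) were not cycling and had at least 3 UMIs of DLX1, DLX2, DLX5 and DLX6 together. The rest could thus hold cells with fewer DLX UMIs. At D26 all 8 markers in the list fixed for GNRH1-high cells, DLX1, DLX2, DLX5, DLX6, GAD2, SLC32A1, ISL1 and SCGN, reached 5 CPM in that class. All 6 markers listed for the other class, SLC17A6, LHX1, LHX5, LHX9, SAMD3 and GABRA2, reached it in TBR1/PPP1R17 cells. The lists were not exclusive, since 5 of the 6 also reached 5 CPM in GNRH1-high cells and 3 of the 8 in TBR1/PPP1R17 cells, and the classes differed in the summed levels. The 8 markers summed to 1482 CPM in GNRH1-high and 35.5 CPM in TBR1/PPP1R17 cells, and the 6 markers to 42.3 CPM and 1128 CPM. All 8 markers listed for GNRH1-high cells also reached 5 CPM in IRX+ and IRX- cells of D26, with sums of 378 and 625 CPM. Among 8 markers of other cell types, 0 reached 5 CPM in GNRH1-high or TBR1/PPP1R17 cells, and their summed level was between 2.33 and 4.27 CPM at D24 and D26. The 6 GNRH1-high cells of D22 are too few to describe.

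**Figure D1:**
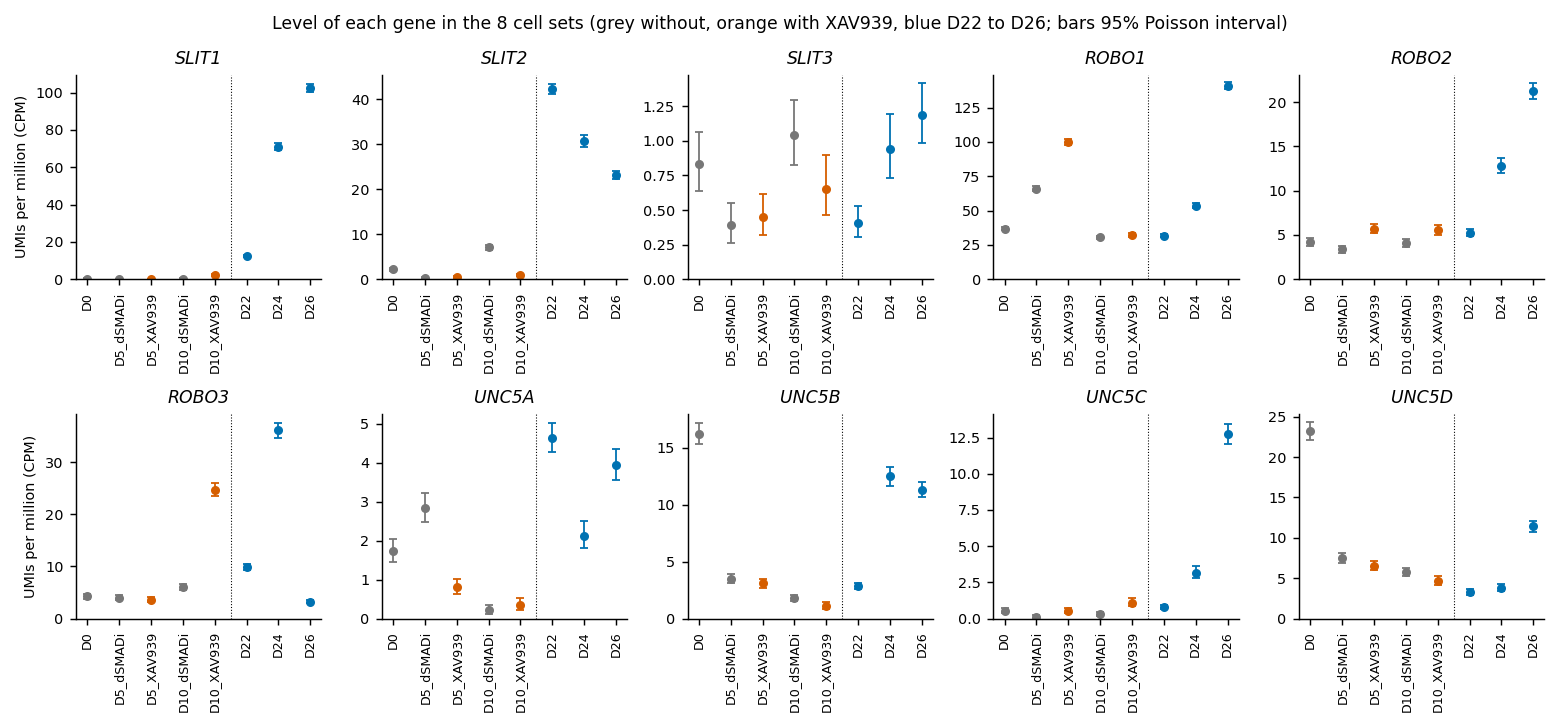
CPM (UMIs in every 1000000 UMIs, on a vertical axis with a scale of its own in each panel) of the 10 genes in the 8 cell sets, without XAV939 (grey), with XAV939 (orange) and at D22 to D26 (blue). Bars are exact 95% Poisson intervals and the dotted line parts the pooled run from the later libraries. Among D22 to D26, SLIT1 was highest at D26 with 102 CPM, SLIT2 at D22 with 42.3 CPM and ROBO3 at D24 with 36.1 CPM.

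Among the ligands, SLIT1 (ENSG00000187122; GRCh38, chr10:96998038-97185959, minus strand) was near 0 in the tagged sets and was counted strongly at the later days. Its level was 0.303 CPM at D0, 0.213 CPM in D5_dSMADi, 0.208 CPM in D5_XAV939, 0.292 CPM in D10_dSMADi and 2.36 CPM (interval 1.98 to 2.79) in D10_XAV939. It was 12.3 CPM (11.7 to 12.9) at D22, 71.1 CPM (69.1 to 73.1) at D24 and 102 CPM (101 to 104) at D26. The intervals of the 3 later days did not overlap, while those of D0, D10_dSMADi and both D5 sets did. The level was 5.78-fold higher at D24 than at D22 (log2 ratio 2.53, 2.45 to 2.61) and 1.44-fold higher at D26 than at D24 (0.53, 0.48 to 0.58). The readthrough gene ARHGAP19-SLIT1 shares exons with SLIT1 on the same strand, so reads there could not be assigned to SLIT1 alone.

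SLIT2 (ENSG00000145147; chr4:20251905-20620561, plus strand) moved the other way over the later days. It stood at 42.3 CPM (41.2 to 43.4) at D22, 30.8 CPM (29.5 to 32.1) at D24 and 23.2 CPM (22.3 to 24.2) at D26, which were 3 intervals without overlap, but each step was less than 2-fold (log2 ratios of -0.46 and -0.41). In the tagged sets it was 2.24 CPM at D0, 0.289 CPM in D5_dSMADi and 7.10 CPM (6.52 to 7.71) in D10_dSMADi, so that D10 was 24.6-fold above D5 without XAV939 (log2 ratio 4.62, 4.02 to 5.29). With XAV939 it was 0.519 CPM at D5 and 0.964 CPM (0.728 to 1.25) at D10. D10_XAV939 was thus 7.36-fold lower than D10_dSMADi, with 56 UMIs against 559 (log2 ratio -2.88, -3.30 to -2.48).

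SLIT3 (ENSG00000184347; chr5:168661740-169301139, minus strand) was scarcely detected. It lay between 0.389 CPM in D5_dSMADi and 1.19 CPM in D26 over the 8 sets, with 31 to 118 UMIs, and its intervals overlapped between each set and the next in the order of levels. The exons of 2 listed genes of the opposite strand overlap its own.

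Among the receptors of SLITs, ROBO1 (ENSG00000169855; chr3:78597239-79767998, minus strand) was present at every stage. It was 36.8 CPM (35.5 to 38.2) at D0, 66.0 CPM (64.2 to 67.8) in D5_dSMADi and 30.5 CPM (29.3 to 31.8) in D10_dSMADi. D10 was 2.16-fold lower than D5 without XAV939 (log2 ratio -1.11, -1.18 to -1.04). With XAV939 the level was 99.96 CPM (97.9 to 102) at D5, 1.52-fold above D5_dSMADi, and 31.9 CPM (30.4 to 33.3) at D10, where the interval overlapped that of D10_dSMADi. ROBO1 then stood at 31.8 CPM (30.8 to 32.8) at D22, 53.5 CPM (51.8 to 55.2) at D24 and 141 CPM (139 to 143) at D26. The step from D24 to D26 was 2.64-fold (log2 ratio 1.40, 1.35 to 1.45). After thinning each cell to 1500 UMIs, a ROBO1 UMI was found in 4.65% of D22 cells, 7.58% of D24 cells and 18.5% of D26 cells (30.8%, 31.0% and 60.9% without thinning).

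ROBO2 (ENSG00000185008; chr3:75906695-77649964, plus strand) was low before D24. It was between 3.36 CPM in D5_dSMADi and 5.69 CPM in D5_XAV939 over the tagged sets, and 5.27 CPM (4.88 to 5.68) at D22, 12.8 CPM (11.96 to 13.7) at D24 and 21.2 CPM (20.3 to 22.2) at D26. D24 was 2.43-fold above D22 (log2 ratio 1.28, 1.13 to 1.43), and D26 was 1.66-fold above D24.

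ROBO3 (ENSG00000154134; chr11:124865432-124881471, plus strand) was counted in passing. It was 4.25 CPM at D0, 3.97 CPM in D5_dSMADi and 3.64 CPM in D5_XAV939, with overlapping intervals, and 5.99 CPM (5.46 to 6.56) in D10_dSMADi against 24.7 CPM (23.5 to 26.04) in D10_XAV939. It was 9.87 CPM (9.34 to 10.4) at D22, 36.1 CPM (34.7 to 37.5) at D24 and 3.23 CPM (2.88 to 3.60) at D26. D24 was 3.66-fold above D22 (log2 ratio 1.87, 1.77 to 1.97), and D26 was 11.2-fold below D24 (log2 ratio -3.48, -3.66 to -3.32). At D24 the UMIs were gathered in few cells, since the 247 cells with at least 3 ROBO3 UMIs (2.71% of cells) held 64.7% of them. For such a gene the Poisson interval is too narrow.

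Among the netrin receptors, UNC5A (ENSG00000113763; chr5:176810519-176880898, plus strand) reached at most 4.62 CPM in a set, at D22. It was 2.84 CPM in D5_dSMADi and 0.807 CPM in D5_XAV939, with 226 and 70 UMIs. Its exons overlap those of HK3 on the opposite strand. UNC5B (ENSG00000107731, chr10:71212570-71302864, plus strand) was highest among the tagged sets in undifferentiated cells, at 16.2 CPM (15.3 to 17.2). It was 4.67-fold lower in D5_dSMADi, at 3.48 CPM (log2 ratio -2.22, -2.42 to -2.03). It was 2.83 CPM (2.55 to 3.13) at D22 and 4.41-fold higher at D24, at 12.5 CPM (11.7 to 13.3), and the interval at D26, at 11.3 CPM (10.6 to 11.96), overlapped that of D24.

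UNC5C (ENSG00000182168; chr4:95162504-95549206, minus strand) stayed at 1.08 CPM or less in the tagged sets. It was 0.790 CPM (0.645 to 0.958) at D22, 3.18 CPM (2.78 to 3.62) at D24 and 12.7 CPM (12.1 to 13.5) at D26, and the step from D24 to D26 was 4.01-fold (log2 ratio 2.00, 1.80 to 2.22). The antisense gene UNC5C-AS1 overlaps exons of it. UNC5D (ENSG00000156687; chr8:35235475-35796550, plus strand) was 23.2 CPM (22.1 to 24.3) at D0 and 3.099-fold lower in D5_dSMADi, at 7.48 CPM (log2 ratio -1.63, -1.77 to -1.50). It was 3.27 CPM at D22 and 3.79 CPM at D24, with overlapping intervals, and 11.4 CPM (10.8 to 12.1) at D26, 3.01-fold above D24 (log2 ratio 1.59, 1.40 to 1.79).

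These changes can be set against all genes by counting those with at least a 2-fold ratio, leaving aside genes that had under 5 CPM in both groups or under 20 UMIs in all. From D0 to D5_dSMADi, 2 of 3 guidance genes that passed these limits were past 2-fold, both lower, against 27.4% of all genes. From D5_dSMADi to D10_dSMADi, 2 of 4 were, SLIT2 higher and ROBO1 lower, against 7.74%. From D22 to D24, 4 of 6 were higher by at least 2-fold, against 24.4% of all genes past 2-fold in either direction. From D24 to D26, 3 of 8 were higher, ROBO1, UNC5C and UNC5D, and ROBO3 was lower, against 10.6%. The median log2 ratio of the genes tested was 1.57 for the 6 guidance genes and -0.12 for all genes from D22 to D24, and 0.63 for the 8 guidance genes and 0.35 for all genes from D24 to D26. Some genes past 2-fold had passed the limit of 5 CPM only through the group where they were higher. These were UNC5B from D0 to D5_dSMADi, SLIT2 from D5_dSMADi to D10_dSMADi, UNC5B from D22 to D24, and UNC5C, UNC5D and ROBO3 from D24 to D26. The counts and medians are therefore descriptions of the genes that passed, which are not the whole family, and nothing is read from them against all genes.

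With XAV939, 0 of 3 guidance genes were past 2-fold at D5, against 1.61% of all genes, and 2 of 5 at D10, against 3.43%. The 2 were SLIT2, which was lower and passed the limit of 5 CPM only through D10_dSMADi, and ROBO3, which was 4.13-fold higher (log2 ratio 2.04, 1.89 to 2.20), and nothing is read from this count. The ROBO3 ratio rested on few cells. STMN2-high cells, with at least 1000 CPM of the neuronal gene STMN2, were 17 of 2416 cells in D10_dSMADi (0.704%, 0.410% to 1.12%) and 66 of 2168 in D10_XAV939 (3.04%, 2.36% to 3.86%). They held 32.8% of the ROBO3 UMIs of D10_dSMADi and 82.2% of those of D10_XAV939. ROBO3 was 441 CPM (374 to 516) in the 17 cells and 718 CPM (678 to 760) in the 66 cells. The STMN2-low cells had 4.04 CPM (3.61 to 4.51) and 4.54 CPM (4.00 to 5.13), whose intervals overlapped. The cell with most ROBO3 UMIs held 37 of the 472 in D10_dSMADi and 59 of the 1436 in D10_XAV939. The Poisson intervals of the 17 and the 66 cells are therefore too narrow, and nothing is read from the gap between them. Without the STMN2-high cells the log2 ratio of ROBO3 was 0.17, and that of SLIT2 was -2.90.

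Other guidance genes were also higher in the STMN2-high cells of D10. SLIT1 was 75.4 CPM (62.7 to 89.9) in those of D10_XAV939 and 0.230 CPM in the STMN2-low cells, and 90.5% of its 137 UMIs lay in them. ROBO2 was 71.8 CPM (59.4 to 86.0) in them and 3.60 CPM in the STMN2-low cells. In the 17 cells of D10_dSMADi, SLIT1 was 25.6 CPM with 9 UMIs and ROBO2 was 131 CPM (95.8 to 175) with 46 UMIs. SLIT2 had 0 UMIs in the 17 cells and 2 in the 66 cells. These cells were rich in CRABP1, a binding protein of retinoic acid, with 9321 and 9714 CPM against 263 and 259 CPM in STMN2-low cells. They were also rich in NHLH1, a transcription factor of newborn neurons, with 455 and 591 CPM against 3.00 and 2.22 CPM. Both were picked from fixed lists. In the same order, the 5 markers listed for IRX+ cells summed to 9634 and 10124 CPM against 2235 and 1161 CPM. Those other than CRABP1 were together lower in STMN2-high cells. The 4 progenitor markers summed to 691 and 1054 CPM against 724 and 1036 CPM. The 6 markers of the TBR1/PPP1R17 class summed to 845 and 416 CPM against 33.3 and 16.1 CPM.

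**Figure D2:**
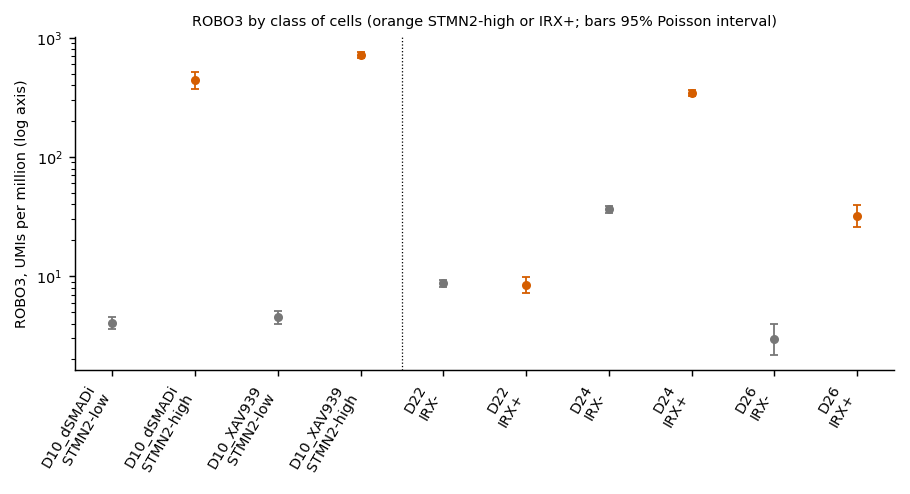
ROBO3 in CPM (log axis) in STMN2-low and STMN2-high cells of D10 and in IRX- and IRX+ cells of D22 to D26; orange marks the STMN2-high and IRX+ cells, bars are exact 95% Poisson intervals and the dotted line parts the runs. The IRX+ cells stood at 345 CPM at D24 and 32.1 CPM at D26, each above the IRX- cells of its day, while the levels at D22 were 8.46 and 8.69 CPM.

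At D24 and D26 ROBO3 had the largest ratio by IRX status among the guidance genes that could be compared. IRX factors are homeobox transcription factors of the posterior neural tube, and IRX+ cells were compared with IRX- cells among those outside the GNRH1-high and TBR1/PPP1R17 classes. ROBO3 was 8.46 CPM (7.26 to 9.81) in IRX+ and 8.69 CPM (8.12 to 9.29) in IRX- cells at D22. It was 345 CPM (325 to 365) against 36.3 CPM (33.7 to 39.1) at D24, a 9.49-fold difference (log2 ratio 3.25, 3.11 to 3.38). It was 32.1 CPM (25.7 to 39.6) against 2.98 CPM (2.17 to 3.98) at D26, a 10.8-fold difference (log2 ratio 3.43, 2.90 to 3.98). The intervals of the IRX+ and IRX- cells overlapped at D22 and lay far apart at D24 and D26.

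The IRX+ cells were 4.95% of cells at D24 and held 45.9% of the ROBO3 UMIs. A ROBO3 UMI was found in 29.5% of them after thinning to 1500 UMIs (47.5% without), against 1.74% of TBR1/PPP1R17 cells (7.47% without) and 0.962% of GNRH1-high cells (3.21% without), at median depths of 6925, 7491.5 and 7939.5 UMIs. Within the IRX+ cells of D24, 142 of 451 had at least 3 ROBO3 UMIs and held 91.6% of the UMIs of the class. At D26, 12 of the 299 IRX+ cells had at least 3 and held 70.1% of the 87 ROBO3 UMIs, so that the level of the class rested on few cells. The difference was also present within TBR1/PPP1R17 cells of D24, at 46.1 CPM (37.9 to 55.5) in the 241 IRX+ and 12.4 CPM (11.4 to 13.6) in the 5117 IRX- cells, and was not seen there at D26, at 2.76 CPM and 2.39 CPM. At D22 the ratio there went the other way, at 16.5 CPM in IRX+ and 25.2 CPM in IRX- cells (log2 ratio -0.61), with 24 UMIs in the former. CRABP1 was also higher in IRX+ cells, at 1622 CPM against 151 CPM at D24 and 894 CPM against 41.1 CPM at D26. At D22, where ROBO3 was level, CRABP1 was 324 CPM in IRX+ and 44.9 CPM in IRX- cells. The 4 progenitor markers of the fixed list summed to 769 CPM in IRX+ and 1042 CPM in IRX- cells at D22. They summed to 330 and 134 CPM at D24 and to 176 and 31.2 CPM at D26. COL3A1, a collagen of connective tissue, was 16.4 CPM in IRX+ against 0.141 CPM in IRX- cells at D22. It was 11.9 against 1.65 CPM at D24 and 0.369 against 0.0661 CPM at D26. The 8 markers of other cell types summed to 22.7 CPM in IRX+ and 6.37 CPM in IRX- cells at D22, 17.2 and 4.00 CPM at D24, and 7.38 and 5.03 CPM at D26. At D24, 4 of the 8 were at 0 in IRX+ cells. The 4 cycling markers summed to 453 CPM in IRX+ and 92.0 CPM in IRX- cells at D24 and to 137 and 25.7 CPM at D26, and the 6 markers of the TBR1/PPP1R17 class to 356 and 634 CPM at D24 and to 302 and 627 CPM at D26. The part of any of these genes in the ROBO3 values was not tested. Of the IRX+ cells, 35.0% were cycling at D22, 4.21% at D24 and then 1.00% at D26.

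At D22, 0 of 6 guidance genes that could be compared by IRX status were past 2-fold, against 3.05% of all genes. ROBO3 was level there, while UNC5A was 1.85-fold and SLIT1 1.59-fold lower and ROBO2 1.54-fold higher in IRX+ cells. UNC5C, under the limit of 5 CPM, was 1.73 CPM in IRX+ and 0.303 CPM in IRX- cells of D22, with 36 and 30 UMIs. At D24, 2 of 6 were past 2-fold, against 10.7%, and beside ROBO3 this was UNC5B, at 5.33 CPM in IRX+ and 11.8 CPM in IRX- cells with 18 UMIs in the former (log2 ratio -1.15, -1.93 to -0.45), and less than 2-fold apart over all cells of the day (-0.57). At D26, 4 of 10 were, against 8.28%, but ROBO3, SLIT3 and UNC5A passed the limit of 5 CPM only through the group where they were higher, so that nothing is read from the count. Beside ROBO3 these were ROBO2, at 62.7 CPM (53.7 to 72.9) against 25.99 CPM (23.5 to 28.7), SLIT3, at 5.91 CPM against 1.52 CPM with 16 and 23 UMIs, and UNC5A, at 2.21 CPM against 5.42 CPM with 6 and 82 UMIs. Of the 82 UMIs, 59 lay in DLX+ cells, the rest of the IRX- cells stood at 2.28 CPM, and over all cells of the day the log2 ratio of UNC5A was -0.31. ROBO1, SLIT1 and SLIT2 were within 1.59-fold of each other in IRX+ and IRX- cells at all 3 days.

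GNRH1-high cells and TBR1/PPP1R17 cells differed in the levels of several receptors. UNC5D was higher in GNRH1-high cells at both days, at 32.6 CPM (26.02 to 40.4) against 2.26 CPM (1.84 to 2.76) at D24 and at 53.9 CPM (48.7 to 59.4) against 4.17 CPM (3.71 to 4.67) at D26. These were 14.4-fold (log2 ratio 3.85, 3.41 to 4.28) and 12.9-fold (3.69, 3.47 to 3.91) differences. At D26, 7.61% of GNRH1-high cells had a UNC5D UMI after thinning (34.7% without), against 0.541% of TBR1/PPP1R17 cells (3.27% without), at median depths of 9318.5 and 8680.5 UMIs. The 7.49% of cells that were GNRH1-high held 35.6% of the UNC5D UMIs of D26.

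UNC5A and ROBO2 were also higher in GNRH1-high cells. UNC5A was 7.38 CPM (4.44 to 11.5) against 1.88 CPM (1.49 to 2.33) at D24 and 7.87 CPM (5.99 to 10.1) against 3.23 CPM (2.82 to 3.67) at D26, which were 3.93-fold and 2.44-fold differences resting on 19 and 59 UMIs in GNRH1-high cells. ROBO2 was 39.6 CPM (32.3 to 48.1) against 8.85 CPM (7.99 to 9.78) at D24, a 4.48-fold difference. At D26 it was 31.1 CPM (27.2 to 35.3) against 17.4 CPM (16.4 to 18.4), a 1.79-fold difference.

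UNC5B, UNC5C, SLIT1 and ROBO1 were higher in TBR1/PPP1R17 cells. UNC5C was 15.0 CPM (14.1 to 15.9) in TBR1/PPP1R17 and 1.33 CPM (0.639 to 2.45) in GNRH1-high cells of D26, 11.2-fold lower in the latter (log2 ratio -3.49, -4.55 to -2.60). This value rested on 10 UMIs, while 29 lay in the 171 cells of both rules, and it was -1.98 with those cells kept in both classes and -4.91 with a GNRH1 limit of 10000 CPM. At D24 it was 4.12 CPM in TBR1/PPP1R17 cells with 180 UMIs and 0 UMIs in GNRH1-high cells, at least 3.53-fold lower with the limit of 3 UMIs that a count of 0 allows over the class. The exact 95% interval of that log2 ratio reached -1.51, which is a smaller difference than this limit gives. UNC5B was 13.9 CPM (12.8 to 15.1) against 2.72 CPM (1.09 to 5.601) at D24 and 13.2 CPM (12.3 to 14.04) against 1.73 CPM (0.923 to 2.96) at D26, 5.11-fold and 7.60-fold lower in GNRH1-high cells (log2 ratios of -2.35 and -2.93, or -1.60 and -1.69 with cells of both rules kept). These intervals did not overlap at either day.

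SLIT1 was 82.6 CPM (79.9 to 85.3) in TBR1/PPP1R17 and 10.9 CPM (7.23 to 15.7) in GNRH1-high cells at D24, and 122 CPM (119 to 124) and 24.7 CPM (21.2 to 28.5) at D26, 7.59-fold and 4.93-fold lower in the latter (log2 ratios of -2.92 and -2.30, or -2.05 and -1.60 with cells of both rules kept). The TBR1/PPP1R17 cells held 85.0% of the SLIT1 UMIs of D26. ROBO1 was 59.8 CPM (57.5 to 62.1) against 35.7 CPM (28.8 to 43.8) at D24 and 161 CPM (158 to 164) against 56.9 CPM (51.7 to 62.6) at D26, and was 2.83-fold lower in GNRH1-high cells at D26 (log2 ratio -1.50, -1.64 to -1.36). ROBO1 and SLIT1, a receptor and a ligand of the same pathway, were both highest in TBR1/PPP1R17 cells among the 5 classes plotted for D26. The rest stood near them, at 134 CPM of ROBO1 and 85.6 CPM of SLIT1, which were 1.21-fold and 1.42-fold lower.

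SLIT2 differed little between these classes. It was 26.4 CPM (20.5 to 33.5) in GNRH1-high and 31.0 CPM (29.4 to 32.7) in TBR1/PPP1R17 cells at D24, with overlapping intervals, and 28.1 CPM (24.5 to 32.2) and 21.9 CPM (20.8 to 23.0) at D26, a 1.29-fold difference. At D22 it was 56.5 CPM (53.9 to 59.2) in the 1868 cycling cells, 41.1 CPM (39.5 to 42.7) in the rest and 15.4 CPM (12.4 to 18.9) in DLX+ cells, whereas SLIT1 was 1.66 CPM (1.24 to 2.18), 11.4 CPM (10.6 to 12.3) and 4.75 CPM (3.16 to 6.86) in them. SLIT1 was 68.3 CPM (63.3 to 73.5) in the TBR1/PPP1R17 cells of D22, which held 44.4% of its UMIs.

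Of the 8 guidance genes that could be compared, 6 were past 2-fold between GNRH1-high and TBR1/PPP1R17 cells at D24, 3 higher and 3 lower in GNRH1-high cells, against 10.9% of all genes. At D26, 6 of 8 were past 2-fold, 2 higher and 4 lower, against 8.31%. Of these, UNC5A, UNC5B and UNC5D at both days and UNC5C at D26 passed the limit of 5 CPM only through the class where they were higher, so that nothing is read from either count. The lower gene of D24 not yet named was ROBO3, at 5.44 CPM with 14 UMIs against 14.3 CPM, which was less than 2-fold apart when TBR1/PPP1R17 cells needed 5 UMIs (log2 ratio -0.83 in place of -1.39). UNC5A, UNC5B, UNC5D and SLIT1 were past 2-fold in the same direction at both days. Of these, only SLIT1 had at least 5 CPM in both classes at both days. UNC5B rested on 7 and 13 UMIs in GNRH1-high cells, and nothing is read from the recurrence of the UNC5 genes. GNRH1 itself was counted in every class, at 84.1 CPM in TBR1/PPP1R17 cells and 35218 CPM in GNRH1-high cells of D26, and its use for the split does not involve the guidance genes.

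**Figure D3:**
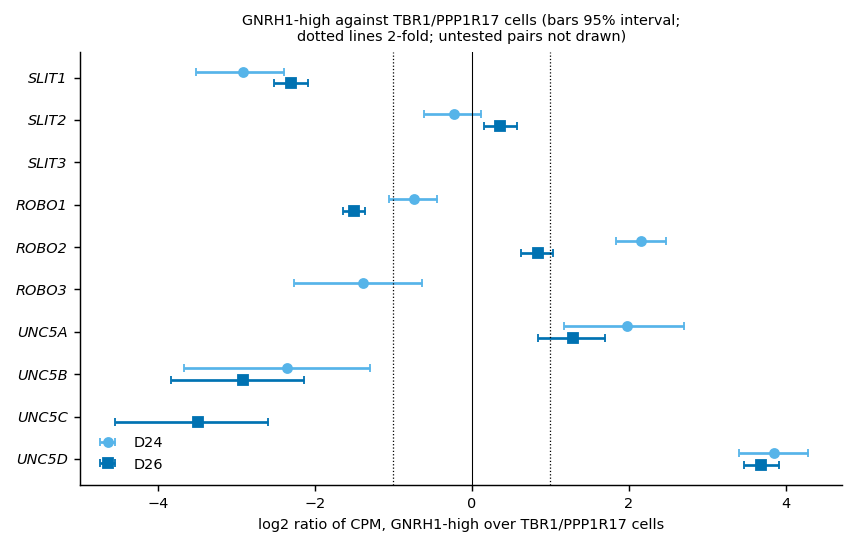
Log2 ratio of CPM in GNRH1-high over TBR1/PPP1R17 cells (horizontal axis) for each gene at D24 (light circles) and D26 (dark squares); bars are 95% intervals from counting error, dotted lines mark 2-fold and genes below the count limits are not drawn. UNC5D stood at 3.85 and 3.69 on the right, and UNC5C stood at -3.49 for D26 on the left.

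DLX+ cells that were low in GNRH1 had UNC5D at a level like that of GNRH1-high cells. These cells carry DLX homeobox transcripts of inhibitory neurons and had 537 CPM of GNRH1 at D26. UNC5D was 53.7 CPM (47.5 to 60.5) in them at D26 and 28.5 CPM (19.6 to 40.0) at D24, beside 3.67 CPM (2.58 to 5.06) and 2.04 CPM (1.45 to 2.80) in the rest. Its intervals in DLX+ and GNRH1-high cells overlapped at both days. UNC5A was 11.7 CPM (8.94 to 15.1), ROBO1 41.2 CPM (35.8 to 47.2) and SLIT1 21.7 CPM (17.8 to 26.2) in DLX+ cells of D26, against 2.28 CPM, 134 CPM and 85.6 CPM in the rest. The 6 markers of the TBR1/PPP1R17 class summed to 916 CPM in the rest and 47.9 CPM in DLX+ cells of D26, beside 1128 CPM in the TBR1/PPP1R17 class itself, so that this contrast is not independent of the one between GNRH1-high and TBR1/PPP1R17 cells. ROBO2 was 49.2 CPM (37.3 to 63.7) in DLX+ cells and 14.2 CPM (12.6 to 16.1) in the rest at D24, but 26.5 CPM (22.2 to 31.4) and 25.8 CPM (22.8 to 29.1) at D26, with overlapping intervals. In the DLX+ cells of D22, UNC5D was 5.94 CPM (4.13 to 8.25). The intervals of UNC5B and ROBO1 did not overlap between both classes at D26. UNC5B was 5.57 CPM (3.70 to 8.05) in DLX+ and 1.73 CPM (0.923 to 2.96) in GNRH1-high cells, with 28 and 13 UMIs. ROBO1 was lower in DLX+ cells, with 56.9 CPM (51.7 to 62.6) in GNRH1-high cells (log2 ratio of GNRH1-high over DLX+ 0.47, 0.22 to 0.71).

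**Figure D4:**
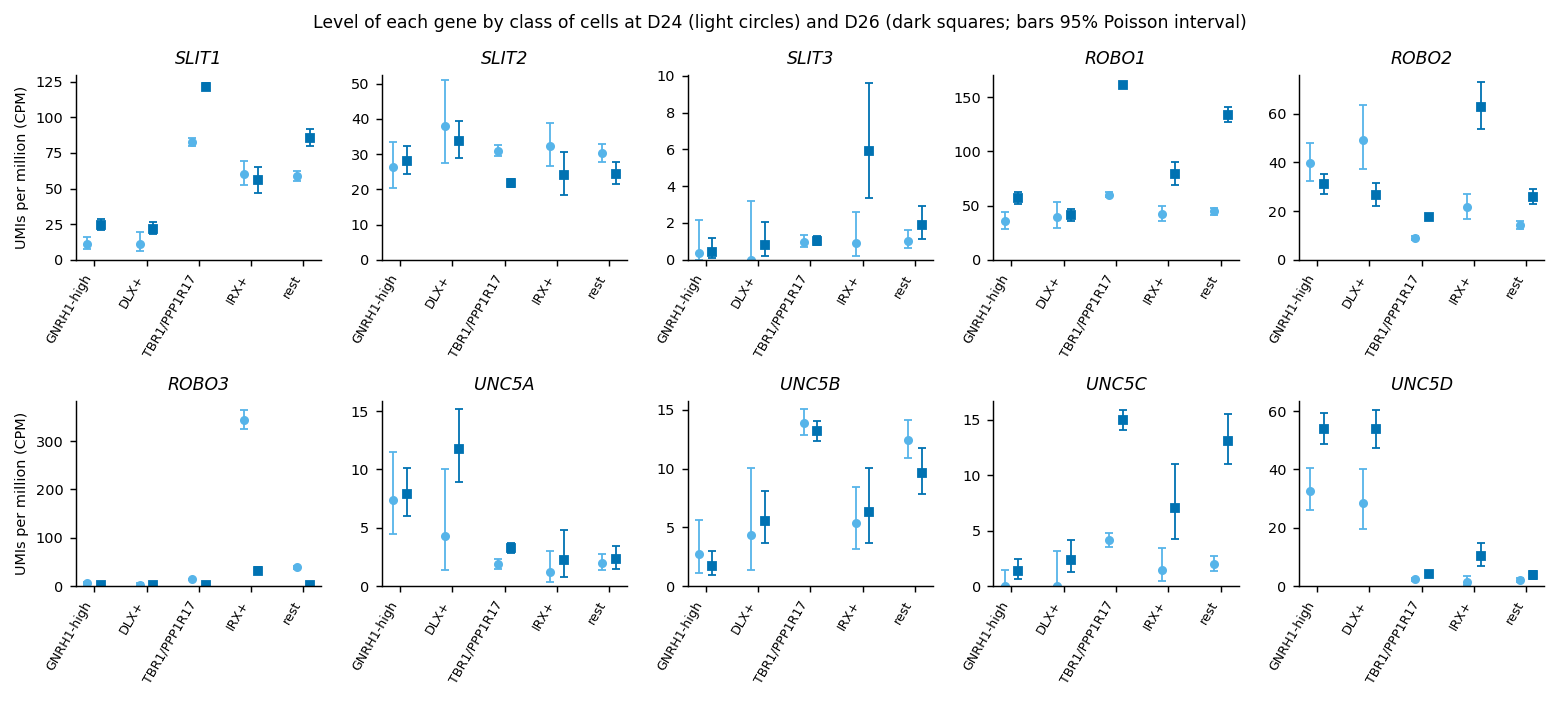
CPM (UMIs in every 1000000 UMIs; vertical axis, with a scale of its own in each panel) of the 10 genes in 5 classes of cells at D24 (light circles) and D26 (dark squares), with exact 95% Poisson intervals. UNC5D was high in GNRH1-high and DLX+ cells (53.9 and 53.7 CPM at D26), SLIT1, ROBO1 and UNC5C in TBR1/PPP1R17 cells and the rest, and ROBO3 in IRX+ cells of D24 (345 CPM).

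Several steps between days were also measured within classes. In TBR1/PPP1R17 cells, ROBO1 was 2.70-fold higher at D26 than at D24 (log2 ratio 1.43, 1.37 to 1.49), UNC5C was 3.64-fold higher (1.86, 1.63 to 2.10) and ROBO3 was 5.94-fold lower (-2.57, -2.82 to -2.33). In GNRH1-high cells, UNC5D was 1.65-fold higher (0.72, 0.38 to 1.08), SLIT1 was 2.27-fold higher (1.18, 0.60 to 1.81) and ROBO1 was 1.59-fold higher (0.67, 0.34 to 1.01). ROBO3 was 2.55-fold lower in them (-1.35, -2.48 to -0.20), with 16 and 14 UMIs. ROBO2, which was higher at D26 over all cells, was also 1.97-fold higher in TBR1/PPP1R17 cells (0.97, 0.81 to 1.14). It was 1.28-fold lower in GNRH1-high cells (-0.35, -0.69 to -0.000502) and 1.86-fold lower in DLX+ cells (-0.89, -1.35 to -0.42). In IRX+ cells, ROBO3 was 40.7-fold higher at D24 than at D22 and 10.7-fold lower at D26 than at D24, and ROBO2 was 2.90-fold higher at D26 than at D24. SLIT1 in TBR1/PPP1R17 cells was 68.3 CPM at D22, 82.6 CPM at D24 and 122 CPM at D26, while over all cells it was 12.3, 71.1 and 102 CPM. The share of TBR1/PPP1R17 cells was 8.23% at D22, 58.8% at D24 and 68.6% at D26.

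Of 42 further genes of these pathways, made up of 12 ligands, 14 receptors and co-receptors and 16 intracellular partners, 29 to 33 could be compared in each comparison. Some, such as DOCK1 from D22 to D24, passed the limit of 5 CPM only through the group where they were higher. Nothing is therefore read from the counts of this list against all genes. NTN1, which encodes netrin 1, was low, at 4.29 CPM at D22, 4.11 CPM at D24 and 3.91 CPM at D26. DCC, the attractive netrin receptor and partner of UNC5 proteins, was 141 CPM at D22, 277 CPM at D24 and 261 CPM at D26, and NELL2 was 80.4, 37.6 and 35.9 CPM. From D22 to D24, 5 were at least 2-fold higher and 3 lower, of 30, which is 26.7% and near the 24.4% of all genes. The largest were RGMB, a ligand of the receptor NEO1 (17.6 to 86.8 CPM), ADGRL1, a latrophilin that binds FLRTs (8.71 to 27.4 CPM), and the syndecan SDC3 (16.2 to 45.3 CPM) among the higher, and DOCK1 (13.3 to 2.62 CPM), DRAXIN (58.7 to 25.2 CPM) and NELL2 among the lower. From D24 to D26, 4 were higher and 0 lower, of 30 (13.3%, against 10.6% of all genes), led by the syndecan SDC2 (19.3 to 67.2 CPM), NEO1 (98.7 to 253 CPM) and ADGRL3 (24.8 to 55.95 CPM).

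In GNRH1-high against TBR1/PPP1R17 cells, 0 genes of the pathway list were higher and 5 lower at both days, of 29 at D24 (17.2%, against 10.9% of all genes) and 31 at D26 (16.1%, against 8.31%). FLRT3, a membrane ligand of UNC5 proteins, was 20.5 CPM against 69.2 CPM at D26, NEO1 was 74.5 CPM against 291 CPM and SDC2 was 7.47 CPM against 78.9 CPM. SDC2, FLRT3 and RGMB were the 3 named for D24, with RGMB at 28.7 CPM against 84.8 CPM. In IRX+ against IRX- cells, 4 of 30 were higher at D22 (13.3%, against 3.05% of all genes), led by SDC2 (62.6 against 19.3 CPM), ADGRL3 and SRGAP1. At D24, 2 were higher and 2 lower of 30 (13.3%, against 10.7%), with SRGAP3, a GTPase-activating protein that binds ROBO receptors, at 360 CPM against 161 CPM, and SDC3 and NEO1 lower. At D26, RGMB was higher (112 against 40.4 CPM) and NEO1 lower (69.4 against 199 CPM), of 31 (6.45%, against 8.28%).

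In the tagged sets, 6 of 30 genes of the list were higher and 2 lower from D0 to D5_dSMADi, a share of 26.7% beside 27.4% of all genes, with SRGAP3 (8.38 to 38.3 CPM), NELL2 (24.8 to 108 CPM) and RGMA (10.2 to 38.8 CPM) higher and PAK1 (96.8 to 27.1 CPM) and SDC4 lower. From D5_dSMADi to D10_dSMADi, 2 were higher and 1 lower of 31 (9.68%, against 7.74%): FLRT3 (8.88 to 40.4 CPM), RGMA and, lower, DRAXIN (48.0 to 13.4 CPM). With XAV939, 0 of 30 were past 2-fold at D5, against 1.61% of all genes, and 2 of 33 at D10 (6.06%, against 3.43%), both higher. The 2, which are named after their values were seen, were DCC, at 6.49 CPM against 1.00 CPM, and NTN4, a netrin, at 6.22 CPM against 2.77 CPM. Both passed the limit of 5 CPM only through D10_XAV939, where they were higher, so that nothing is read from this count. Over the 11 comparisons the median log2 ratio of the list was between -0.29 and 0.43.

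The genes most like the guidance genes were sought by Pearson's r of log2(CPM + 1) over 21 groups of at least 50 cells, among 8931 other genes with at least 20 CPM in 1 group. The groups share libraries and depth, they span the pooled run and the later libraries, and the 66 STMN2-high cells are also part of D10_XAV939. A gene near 0 in the pool and high later, such as SLIT1, takes part of its r from that difference, which cannot be told apart from the run, so r is a description and carries no p-value. ROBO1 was most like CTTNBP2 (r = 0.90), ADA2 (0.85) and RNF2 (0.82). SLIT1 was most like LHX1-DT (0.96), the transcript divergent to LHX1, DCTN1 (0.95) and CNRIP1 (0.95). SLIT2 was most like FKBP2, PTP4A1 and ZFPM1 (0.95 to 0.94), ROBO2 like NCAN, SCRT2 and PPP1R1A (0.90 to 0.88), and UNC5D like TMEM167A, SLITRK6 and PDE9A (0.91 to 0.87).

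ROBO3 was most like ROBO4 (r = 0.92), before SCHIP1 (0.89) and NPC1 (0.88). ROBO4 and NPC1 reached the 20 CPM needed for the search only in the 66 STMN2-high cells of D10_XAV939. ROBO3 was also highest in that group, at 718 CPM, so that nothing is read from these matches. ROBO4 is the endothelial member of the family and lies next to ROBO3 on chromosome 11, on the opposite strand, with its nearest end 2219 bases beyond the end of ROBO3. It was 20.7 CPM (14.3 to 28.9) in the STMN2-high cells of D10_XAV939 with 34 UMIs, 37.0 CPM in those of D10_dSMADi with 13 UMIs and 8.89 CPM (5.998 to 12.7) in IRX+ cells of D24 with 30 UMIs, and less than 1 CPM in every whole set. PECAM1, an endothelial marker, had 0 UMIs in the 66 STMN2-high cells and 1 in the 17. Among the guidance genes themselves r was 0.72 for SLIT1 with UNC5C and for ROBO1 with UNC5C, and 0.66 for SLIT1 with ROBO2. It was 0.43 for SLIT1 with ROBO1 and -0.40 for ROBO3 with UNC5D.

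The promoters of ROBO3, which stood apart by IRX status, and of SLIT1 and UNC5C, which were both higher in TBR1/PPP1R17 cells, are shown from 250 bases before to 50 after a start site. They are RefSeq sequences of GRCh38.p14, 5′ to 3′ on the strand of the gene, at chr11:124865182-124865481 (plus), chr10:97185910-97186209 (minus) and chr4:95548924-95549223 (minus). The ROBO3 start shown is the one of 3 that lies at the annotated start of the gene. SLIT1 and UNC5C have 1 each, and 3′ counts do not tell which start was used. The annotated UNC5C gene begins at base 95549206, within the stretch shown, so that its marked E-box lies inside the gene. The annotated SLIT1 gene begins at base 97185959, and its marked E-box also lies inside the gene. Capitals mark the E-box CANNTG, bound by basic helix-loop-helix factors, and the homeodomain core TAATTA, each searched on both strands with no overlap between them here.
ROBO3: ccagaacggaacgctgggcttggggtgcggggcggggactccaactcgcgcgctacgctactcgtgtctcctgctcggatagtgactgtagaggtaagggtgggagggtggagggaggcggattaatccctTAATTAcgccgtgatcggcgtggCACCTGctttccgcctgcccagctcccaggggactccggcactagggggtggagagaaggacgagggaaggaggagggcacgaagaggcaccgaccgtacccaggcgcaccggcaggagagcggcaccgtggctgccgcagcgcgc
SLIT1: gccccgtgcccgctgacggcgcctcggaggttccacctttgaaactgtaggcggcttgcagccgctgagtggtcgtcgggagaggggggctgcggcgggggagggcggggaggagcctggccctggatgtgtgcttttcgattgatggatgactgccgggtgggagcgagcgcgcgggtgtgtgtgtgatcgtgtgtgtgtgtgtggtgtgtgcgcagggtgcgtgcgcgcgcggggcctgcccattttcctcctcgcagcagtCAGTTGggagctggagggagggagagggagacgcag
UNC5C: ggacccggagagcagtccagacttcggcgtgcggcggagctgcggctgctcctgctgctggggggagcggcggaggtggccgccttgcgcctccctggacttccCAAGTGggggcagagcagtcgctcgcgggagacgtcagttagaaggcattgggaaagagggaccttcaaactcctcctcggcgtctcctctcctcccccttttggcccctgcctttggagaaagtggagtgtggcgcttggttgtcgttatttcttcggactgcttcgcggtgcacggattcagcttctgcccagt
Each of the 3 held 1 CANNTG, which was in 68.7% of 35116 RefSeq promoters of the same length. Of the starts not shown, those of SLIT2, SLIT3 and UNC5A held 0 CANNTG. Those of ROBO1 held 2 and 4, those of ROBO2 held 2 and 0, and the other ROBO3 starts held 1 each. The ROBO3 promoter shown also held 1 TAATTA, which was in 4.84% of all and not at the other ROBO3 starts. The T-box letters GGTGTGA, in 3.45% of all, were in none of the 3 promoters shown. These matches describe the letters and were not tested for binding.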

How the data were processed

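The authors deposited raw UMI counts per gene and cell barcode, without normalization, for 8 cell sets of WA09, and the values are whole numbers. Per the file headers they were made with Cell Ranger 6.1.2 for the tagged sets and 3.1.0 for D22 to D26, and the submitters' processing notes name Cell Ranger 3.1 and GRCh38. The tagged sets were assigned by the tag that the labels give for each condition.

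Cells were kept by the limits that the study's methods state for each set: at D22 to D26 at least 1500 UMIs, 1000 genes and under 20% mitochondrial UMIs, and at D5 and D10 at least 10000 UMIs, 3000 genes and under 10%. A further limit was set on log10 genes over log10 UMIs, above 0.82 or 0.78 and at D10 below 0.9. For D0 (30000 UMIs, 5000 genes and under 10%) the limit stated, 0.85, kept 1 of 1292 cells and was left out after the data were seen, which kept 1009. The study states 2480 (D5_dSMADi), 2919 (D5_XAV939), 2778 (D10_dSMADi) and 2638 (D10_XAV939) cells as analysed, which equal the barcodes deposited. In the same order the limits kept 2419, 2815, 2416 and 2168 of them here, so the cells of these sets are fewer than the study's. No doublet caller was used. Leaving out the 5% of cells with most UMIs stood in for it.

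UMIs were summed over a group of cells and divided by its total (CPM), with exact Poisson intervals. Shares of cells were taken after thinning to 1500 UMIs a cell at D22 to D26 and 10000 at D0 to D10. The interval of a ratio is the exact binomial one for how its UMIs fell between both groups, and that of a share of cells in a class is Clopper-Pearson. All are at 95% and take UMIs as independent. A group with 0 UMIs was set at 3. Computation ran in Python 3.11.15 with NumPy 2.4.6, SciPy 1.17.1, pandas 2.3.3 and matplotlib 3.10.9, and the ratio was tested on simulated data. The simulated UMIs were independent and the genes changed in them were well counted. That test therefore does not cover UMIs gathered in few cells or ratios that rest on few UMIs. Gene positions are from GENCODE v44, and 8 of 10 genes had a RefSeq promoter in the table used. The genes named are the 10 guidance genes, the 3 pathway genes of largest ratio in each direction among those past 2-fold with at least 10 CPM, and the 3 genes of most similar pattern. The guidance genes, lists and class rules were chosen with earlier results of these data known. The alternatives were other filters, scalings, a mean over cells and other class limits. The sample of the tag library was not analysed here.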

Additional observations from a re-analysis of the deposited data

How the results depend on the processing

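Under the alternatives, 78 counts of guidance genes past 2-fold were within 1.5 times of the value given. The exceptions were 1 in place of 2 for D10_XAV939 over D10_dSMADi without STMN2-high cells, an alternative chosen after seeing the data, and those by IRX status. With at least 2 IRX UMIs the counts were 2 in place of 0 at D22 and 7 in place of 4 at D26. At D24 the count was 1 in place of 2 with a GNRH1 limit of 10000 CPM, with TBR1 and PPP1R17 at 5 UMIs and over all cells of the day, where UNC5B no longer reached 2-fold, and over all cells of D26 it was 2 in place of 4. Of the log2 ratios of single genes, 515 stayed within their interval, 43 lay outside it, and 0 of those past 2-fold changed sign. The ROBO3 ratio by IRX status was between 3.11 and 3.73 at D24 and between 2.68 and 3.95 at D26 over the alternatives tried. Scaling without mitochondrial and ribosomal protein genes moved the median log2 ratio of all genes by 0.17 from D0 to D5_dSMADi and by -0.14 from D5_dSMADi to D10_dSMADi. Levels under 5 CPM, among them SLIT3 in all 8 sets, are limited by depth. No paired analysis was possible because the data hold no replicate culture of any condition.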
